A study of Mus musculus with 12 samples.

Results

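The miR-34 and miR-449 microRNAs (miRNAs) were followed in murine pulmonary endothelial cells, unstimulated or stimulated through the intracellular receptors NOD1 and NOD2. The members were all assays of the array named miR-34 or miR-449, which were mmu-miR-34a, mmu-miR-34b-3p, mmu-miR-34c, mmu-miR-449a and mmu-miR-449b, 5 of 375 miRNA assays. Primary endothelial cells were isolated from lungs of male wild type C57BL/6N mice aged 6 to 10 weeks by selection for CD144 and CD31 with magnetic beads, with the lungs of 3 mice pooled for each isolation. All cells were starved for 2 hours, and RNA was taken from 4 unstimulated control cultures, 4 cultures after 6 hours of Tri-DAP (NOD1 ligand, labelled TD) and 4 after 6 hours of MDP (NOD2 ligand), each ligand at 10 μg/mL. Each RNA sample was run on a TaqMan low-density array, a card of 384 wells with a real-time PCR assay in each, which gives the threshold cycle of the fluorescence (Ct), lower for more RNA. Wells that had not reached the threshold by the last cycle carry a Ct of 40. Arrays carry their number in the labels, which were 4, 7, 10 and 13 for control, 5, 8, 11 and 14 for Tri-DAP and 6, 9, 12 and 15 for MDP. The paper states that 4 independent cell isolations were used for the arrays. Which arrays share an isolation is not given in the sources used here, and the main tests use no pairing.

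MiRNAs repress mRNAs that pair with their seed, the bases near the 5′ end. MiR-34a is a direct transcriptional target of p53, represses cell cycle and survival genes such as cyclins, CDKs, Bcl2 and Sirt1, and accumulates in senescent endothelial cells. MiR-34b and miR-34c are cut from a common primary transcript, and the miR-449 miRNAs from an intron of Cdc20b. Both clusters are best known from multiciliated epithelium of airways, oviduct and brain ventricles and from male germ cells, and they promote ciliogenesis in part by repressing Cp110.

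The family is held together by its seed, and the sequences are shown because the assay of miR-34b reads another arm than the others. A name without an arm, such as miR-34a, stands in the older nomenclature for the main arm of the hairpin, here 5p. Of the 5 members, 3 matched a mature entry of RefSeq (GRCm38.p6). No entry was found for the 5p arm of miR-34c or for miR-449b, so that their seeds were not read or counted here. The 3 matched sequences are given 5′ to 3′ beside the miR-34b-5p, miR-34c-3p and miR-449c-5p entries, with bases 2 to 8, the seed, in capitals.
mmu-miR-34a-5p: uGGCAGUGucuuagcugguugu
mmu-miR-449a-5p: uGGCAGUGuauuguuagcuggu
mmu-miR-34b-5p: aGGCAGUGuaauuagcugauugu
mmu-miR-449c-5p: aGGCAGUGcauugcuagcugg
mmu-miR-34b-3p: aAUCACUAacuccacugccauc
mmu-miR-34c-3p: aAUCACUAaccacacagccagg
The seed GGCAGUG was found in 4 of the 1679 mature mouse sequences of the RefSeq table, the 5p sequences of miR-34a, miR-34b, miR-449a and miR-449c. The assayed miR-34b-3p carries AUCACUA instead, which it shared with miR-34c-3p alone among these sequences. Thus miR-34b-3p reports the hairpin of miR-34b, not the strand with the family seed. Over their whole length miR-34a-5p and miR-449a-5p differed by 6 single-base edits, and miR-34a-5p and miR-34b-5p by 4. Cross-reading between assays of the family was not tested.

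On GRCm38.p6, miR-34a-5p lies at chr4:150068473-150068494 on the plus strand, where no other RefSeq gene overlaps its hairpin. MiR-34b-3p lies at chr9:51103574-51103595 on the minus strand. The hairpins of Mir34b and Mir34c are separated by 451 bases and both overlap the protein-coding genes Hoatz and Btg4. MiR-449a-5p lies at chr13:113037549-113037570 on the plus strand. The hairpins of Mir449a and Mir449b overlap Cdc20b.

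All members except miR-449b were measured on all 12 arrays. Ranked by mean Ct, miR-34a came first at 26.4 ± 0.33 (SD, n = 12), followed by miR-34b-3p at 27.5 ± 0.46, miR-34c at 30.4 ± 0.73, miR-449b at 32.5 ± 0.76 (SD, n = 8) and miR-449a at 33.0 ± 1.08 (SD, n = 12). Of the 320 miRNAs with a value on 1 or more arrays, 14.7% came before miR-34a and 19.4% before miR-34b-3p. For miR-34c this share was 43.1% and for miR-449b 64.1%, and 224 of the 320 came before miR-449a. The p53-linked miRNA therefore lay in the early part of the ranking, the miR-34b/c cluster was split between the early and the middle part, and both miR-449 miRNAs lay in the later part. PCR efficiency differs between assays, and a Ct ranks different miRNAs only roughly.

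**Figure D1:**
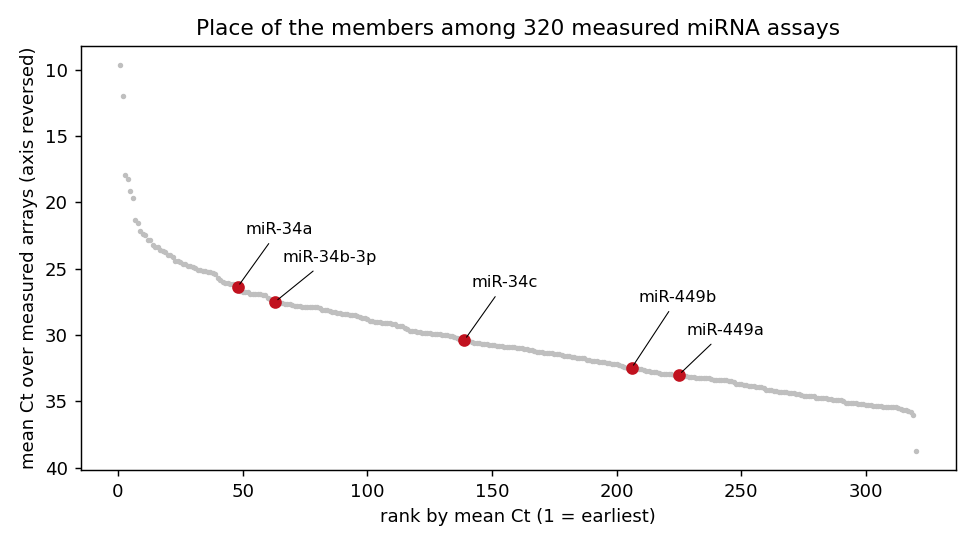
Mean Ct of the 320 miRNA assays measured on at least 1 array (reversed axis, cycles) against their rank, with the 5 members as red points and the others in grey. MiR-34a and miR-34b-3p lie at the early end, miR-34c near the middle and miR-449b and miR-449a in the later part.

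The order held within arrays. MiR-34a exceeded miR-34b-3p on 12 of 12 arrays, by 1.12 ± 0.48 (SD) on the log2 scale, and miR-34c on 12 of 12, by 4.0 ± 0.78. MiR-34b-3p exceeded its cluster partner miR-34c on 12 of 12 arrays, by 2.88 ± 0.78. The members of this cluster come from a common primary transcript, which was not measured, and PCR efficiency differs between assays. The source of this difference was not tested. MiR-34c exceeded miR-449b on 8 of 8 arrays that measured both, by 1.83 ± 1.05, and miR-449a on 11 of 12 arrays, by 2.62 ± 1.12. On the remaining array, control array 7, miR-34c had its latest Ct of all arrays, 32.0, and was level with miR-449a. The order of miR-449a and miR-449b was not beyond their spread, with a within-array difference of -0.81 ± 1.34 (miR-449a minus miR-449b, SD, n = 8) and miR-449a higher on 3 of 8 arrays.

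The endothelial label and other cell types were examined by lists of miRNAs. The endothelial miR-126-3p had a mean Ct of 19.7 and miR-126-5p of 21.3, each measured on 12 of 12 arrays. Of 11 miRNAs of airway and other epithelial cells, all were on the array and 3 were measured on all arrays. MiR-205 was measured on 1 array only, at a Ct of 27.5, miR-200b on 11 arrays with a mean Ct of 29.7 and miR-200a on 10 arrays with a mean Ct of 30.5. The summed epithelial level ran from 0.946 to 19.7 per 1000 of U6 on control arrays, from 1.89 to 6.79 after Tri-DAP and from 2.07 to 11.6 after MDP, so that the groups overlapped. The 19.7 was that of control array 4 alone, and the other control arrays lay at 8.44 or less. Single miRNAs of the list varied widely between arrays, with miR-200b at Ct 25.6 to 33.1. Of the list, 9 miRNAs were tested after Tri-DAP and 8 after MDP, and 0 were called at an unadjusted p under 0.05 in limma, where 1.69% and 1.23% of all miRNAs tested were, so that nothing is read from this count. A low level of miR-34b/c or miR-449 in bulk RNA can come from few cells of a type or from little RNA per cell, which cannot be told apart here, and the part of epithelial cells in the values of these members was not tested. Of the arrays, 3 stood apart in the summed level of 3 fibroblast and mural miRNAs, which was 97.4 per 1000 of U6 on control array 13, 43.8 on Tri-DAP array 14 and 96.5 on MDP array 15, against 3.18 to 13.2 on the other 9. On these 3 arrays the summed endothelial level was also lowest, at 287 to 681 against 959 to 3510 on the others. The 287 was that of Tri-DAP array 14 and the 3510 that of Tri-DAP array 8, where U6 was earliest (Ct 18.3) and latest (21.6). The reference therefore enters these levels, and its part was not tested. Each group held 1 of these 3 arrays, whose label numbers 13, 14 and 15 are consecutive, and values without them are given beside those of the members.

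For comparison between groups, Ct was normalized to U6, the mean of the 4 wells of this small nuclear RNA on the array. U6 itself ran from 18.3 on Tri-DAP array 14 to 21.6 on Tri-DAP array 8, a range of 3.33 cycles. In contrast, the small nucleolar RNA snoRNA202 ranged over 1.04 cycles, and the mean of the 174 miRNAs present on every array over 1.48. The choice of reference therefore enters each normalized value, and results are given relative to U6 and, where it matters, relative to the mean of these 174 miRNAs or as plain Ct.

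MiR-34a had Ct values of 26.1, 26.2, 26.5 and 26.5 on control arrays 4, 7, 10 and 13. After Tri-DAP the values were 25.8, 26.8, 26.2 and 26.7 on arrays 5, 8, 11 and 14, and after MDP 25.9, 26.7, 26.4 and 26.8 on arrays 6, 9, 12 and 15. All 3 groups overlapped within 0.989 cycles. Relative to U6, log2 expression was -6.69 ± 0.53 (SD, n = 4) in control cells, -6.84 ± 1.47 after Tri-DAP and -6.79 ± 0.81 after MDP, where Tri-DAP arrays 8 (-5.15) and 14 (-8.41), the arrays with the latest and the earliest U6, lay at both ends of all 12. The log2 fold change of miR-34a was -0.15 after Tri-DAP (95% interval -1.76 to 1.46, limma adjusted p = 0.998, exact permutation test, two-sided, p = 0.83). After MDP it was -0.11 (95% interval -1.71 to 1.5, limma adjusted p = 1.0, p = 0.83 in the same exact test). Neither difference exceeded the spread between arrays. Relative to the mean of the 174 miRNAs, miR-34a was lowest on the 3 arrays high in fibroblast and mural miRNAs, at 1.57 to 1.75 against 2.07 or more on the other 9, and the part of other cell types in this was not tested. With these 3 arrays left out, miR-34a differed from control on the log2 scale with U6 as reference by 0.26 in Tri-DAP cells and -0.12 in MDP cells, neither called in limma.

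**Figure D2:**
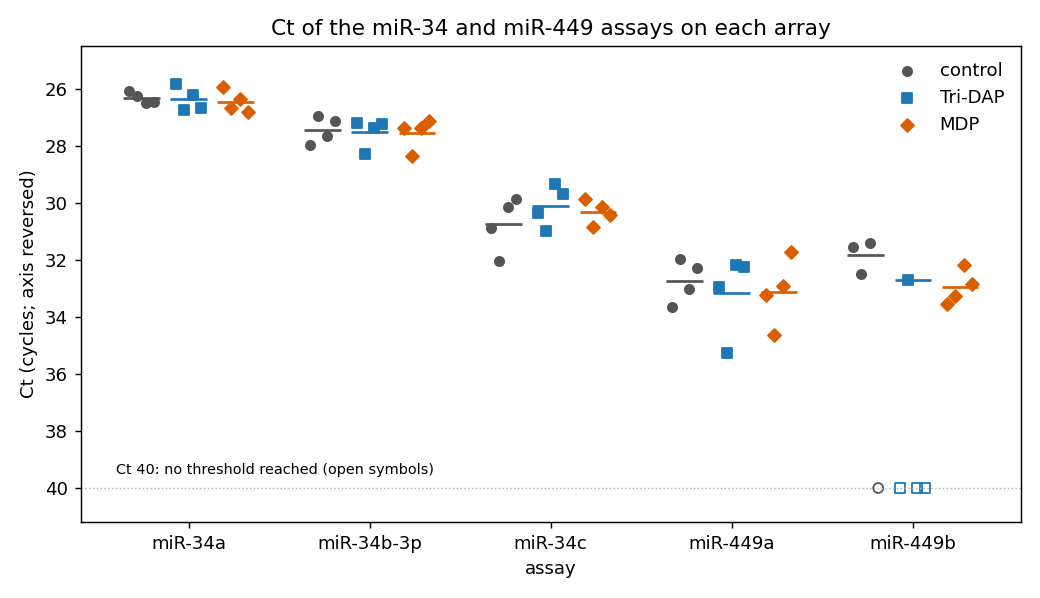
Ct (cycles, reversed axis) of each member on each array, with control as grey circles, Tri-DAP as blue squares and MDP as orange diamonds; horizontal lines are means of measured wells, and open symbols at 40 are wells that reached no threshold. Groups overlap for each assay measured on 12 arrays, and the 4 open symbols, 3 of them Tri-DAP, all belong to miR-449b.

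The plain Ct of miR-34a varied less than that of nearly all other miRNAs. Its residual SD around the group means was 0.36 cycles, and 4 of the 174 miRNAs measured on all arrays (2.3%) had a smaller one, against a median of 0.78. After normalization to U6 its residual SD was 1.02 on the log2 scale, close to the median of 1.0, and relative to the mean of the 174 miRNAs it was 0.56 against a median of 0.69. The other members did not stand at the low end in the same way. For miR-34b-3p 20.7% of these miRNAs had a smaller residual SD of the plain Ct, for miR-34c 45.4% and for miR-449a 71.3%.

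In the miR-34b/c cluster, miR-34b-3p had Ct values of 28.0, 27.0, 27.7 and 27.1 on the control arrays in the same order, 27.2, 28.3, 27.4 and 27.2 after Tri-DAP and 27.4, 28.4, 27.4 and 27.1 after MDP. Single late wells on Tri-DAP array 8 and MDP array 9 stood beside values that overlapped in all groups. Relative to U6 it differed from control by -0.21 on the log2 scale after Tri-DAP (95% interval -1.64 to 1.21, limma adjusted p = 0.998) and -0.11 after MDP (-1.54 to 1.31, limma adjusted p = 1.0). With the 3 arrays high in fibroblast and mural miRNAs left out, the difference after Tri-DAP turned to 0.14 and was not called in limma.

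MiR-34c, the cluster partner, had Ct values of 30.9, 32.0, 30.1 and 29.9 on the control arrays, 30.4, 31.0, 29.3 and 29.7 after Tri-DAP and 29.9, 30.8, 30.1 and 30.4 after MDP. The groups overlapped, with the latest value on control array 7 and the earliest on Tri-DAP array 11. It was the only member whose mean lay above the control in both comparisons, by 0.51 after Tri-DAP (95% interval -0.83 to 1.85, limma adjusted p = 0.998, exact permutation test, two-sided, p = 0.40) and by 0.42 after MDP (-0.92 to 1.76, limma adjusted p = 1.0, p = 0.43 in the same exact test). Relative to the mean of the 174 miRNAs the difference after Tri-DAP was 0.75, with p = 0.057 in the exact permutation test, and the groups still overlapped. Single arrays moved these sizes by over 1.5 times. With U6 as reference the difference after Tri-DAP was 0.21 when control array 7 was left out and 0.12 when Tri-DAP array 8 was. The difference after MDP was 0.12 when control array 7 was left out and 0.086 when MDP array 6 was. Without the 3 arrays high in fibroblast and mural miRNAs it was 1.02 after Tri-DAP and 0.67 after MDP, neither called in limma. Both comparisons use the same 4 control arrays, and a shared direction is therefore no repeat of a result.

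MiR-449a was the member with the latest mean Ct. It read 33.7, 32.0, 33.0 and 32.3 on the control arrays, 32.9, 35.3, 32.2 and 32.2 after Tri-DAP and 33.2, 34.7, 32.9 and 31.7 after MDP. Its latest wells were on Tri-DAP array 8 and MDP array 9, as for miR-34b-3p, and the groups overlapped. With U6 as reference the log2 fold change came to -0.54 after Tri-DAP (95% interval -1.99 to 0.92, limma adjusted p = 0.998) and -0.39 after MDP (-1.84 to 1.07, limma adjusted p = 1.0), both smaller than the standard error of 0.67. The difference after MDP was -0.0009 without MDP array 9 and -0.0067 without control array 7, and without the 3 arrays high in fibroblast and mural miRNAs it was -0.79.

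MiR-449b was the only member with wells that reached no threshold. On control arrays 4, 7 and 10 its Ct was 31.6, 32.5 and 31.4, and control array 13 was undetermined. After Tri-DAP only array 8 gave a value, 32.7, and arrays 5, 11 and 14 were undetermined. After MDP all arrays gave a value, 33.6, 33.3, 32.2 and 32.9. The control group thus gave a value on 3 of 4 arrays, the Tri-DAP group on 1 of 4 and the MDP group on 4 of 4, and these counts were not separated by Fisher's exact test (two-sided, p = 0.49 for Tri-DAP against control, p = 1.0 for MDP against control and p = 0.14 for MDP against Tri-DAP). Over the whole array, 4 of 375 assays (1.07%) were measured on at least 3 more MDP than Tri-DAP arrays, and 1 assay on at least 3 more Tri-DAP than MDP arrays. The number of measured miRNAs was 231 on Tri-DAP array 8, which measured miR-449b, and 241 to 247 on the other Tri-DAP arrays, and its part was not tested.

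Among measured wells, miR-449b was lower after MDP. Its log2 expression relative to U6 was -11.7, -12.5 and -12.1 on control arrays 4, 7 and 10 and -13.3, -13.3, -13.5 and -13.2 on MDP arrays 6, 9, 12 and 15, without overlap. The log2 fold change was -1.19 (standard error 0.57, 95% interval -2.49 to 0.10, limma unadjusted p = 0.066, adjusted p = 1.0), and it was not called at the unadjusted threshold of 0.05. The exact permutation test over the 7 measured arrays gave p = 0.029, two-sided, the smallest p that 4 arrays against 3 allow. This test is not adjusted over the members and leaves out control array 13. Measured wells of miR-449b ended at Ct 33.6, and whether an undetermined well stands for a low level or a failed reaction was not tested. With that well at Ct 40 the direction turned, with a log2 difference of 0.92 (p = 1.0 in the same exact test). Relative to the mean of the 174 miRNAs the difference was -1.24, without overlap (exact permutation test, p = 0.057), and limma called it at the unadjusted threshold (p = 0.032). In plain Ct it was -1.14 with overlapping groups (p = 0.086 in the exact test). Without the 3 arrays high in fibroblast and mural miRNAs it was -1.24 relative to U6 (limma unadjusted p = 0.076). Relative to the mean of the miRNAs it was then -1.16 (limma unadjusted p = 0.059), and neither was called. Thus the level of measured wells and the number of measured wells pointed in opposite directions for MDP against control.

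Tri-DAP could not be tested for miR-449b with 1 measured array. With undetermined wells at Ct 40, the log2 difference was -4.43 from control (exact permutation test, two-sided, p = 0.34), and MDP lay 5.35 above Tri-DAP (p = 0.14 in the same exact test). Both sizes are set by the value of 40 given to the undetermined wells.

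Taking the members as a group, 0 of 4 tested were called after Tri-DAP, where limma called 4 of 237 miRNAs (1.69%), and 0 of 5 after MDP, where it called 3 of 244 (1.23%). Between MDP and Tri-DAP 0 of 4 members were called, against 5 of 241 miRNAs (2.07%), and the log2 differences (MDP minus Tri-DAP) were 0.04 for miR-34a, 0.10 for miR-34b-3p, -0.09 for miR-34c and 0.15 for miR-449a. No miRNA of the array passed an adjusted p under 0.05 in limma. Measured values without overlap between groups were found for 0 of 4 members after Tri-DAP, against 1.86% of the miRNAs with 3 or more measured arrays in both groups. Between MDP and Tri-DAP it was 0 of 4 members, against 1.39%. After MDP it was 1 of 5 members, miR-449b, which was the only miRNA without overlap among 222 (0.45%). The median log2 fold change of the members tested was -0.18 after Tri-DAP and -0.11 after MDP, against -0.24 and -0.02 over all miRNAs tested. The number of arrays and the reference limit these tests. For the 4 members measured on all arrays, the 95% intervals against control relative to U6 reached from -1.99 (miR-449a after Tri-DAP) to 1.85 (miR-34c after Tri-DAP). Changes inside an interval are not excluded by these data. For miR-34a after Tri-DAP the interval was -1.76 to 1.46 relative to U6 and -0.87 to 1.03 relative to the mean of the 174 miRNAs.

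**Figure D3:**
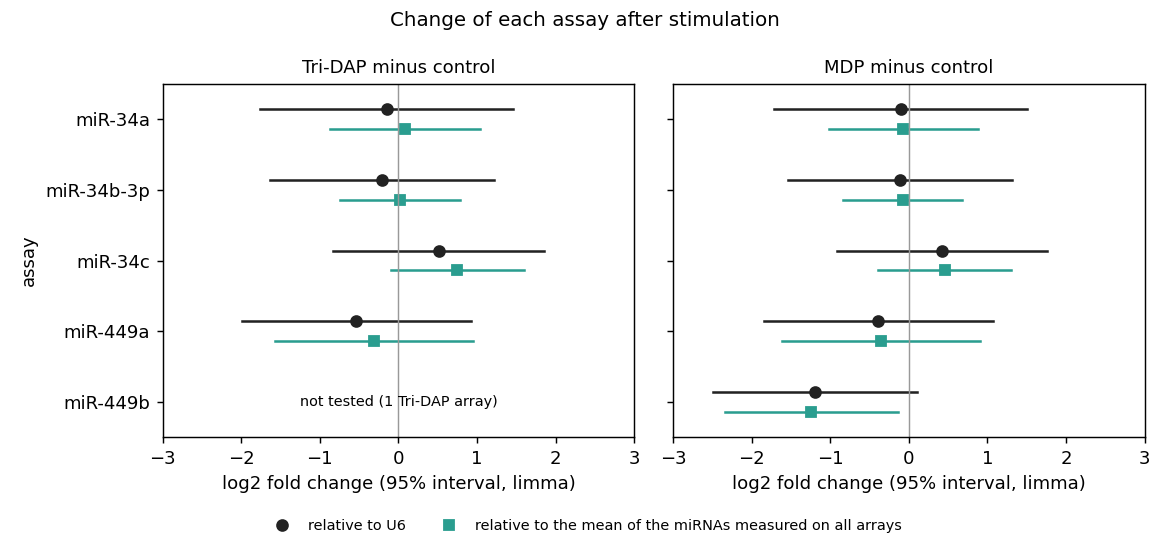
Log2 fold change of each member with its 95% interval from limma, Tri-DAP against control (left) and MDP against control (right), relative to U6 (black circles) or to the mean of 174 miRNAs (green squares). The intervals relative to U6 all include 0, and miR-449b after MDP relative to the mean of the miRNAs, at -1.24, is the exception among the others.

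A difference of 2 assays on the same array does not depend on the reference. The 10 pairs of members gave 22 comparisons between groups, of which 1 had an exact p under 0.05 and 0 after Benjamini-Hochberg adjustment. Between miR-34c and miR-449b the within-array log2 difference was 0.80 ± 0.41 (SD, n = 3) on control arrays and 2.64 ± 0.72 (SD, n = 4) after MDP, without overlap. This difference of 1.84 had p = 0.029 in the two-sided exact permutation test, the smallest that 4 arrays against 3 allow, and an adjusted p of 0.63. Between the p53-linked miR-34a and its relatives the balance stayed within the spread, with the miR-34a to miR-34b-3p difference at 1.10 ± 0.55 (SD, n = 4) in control cells, 1.16 ± 0.43 after Tri-DAP and 1.11 ± 0.60 after MDP.

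Whether members vary together across arrays was examined for all 10 pairs, and for each member with the mean of the 3 epithelial miRNAs measured on all arrays, which made 15 relations for each reference. These 3 were miR-182, miR-203 and miR-429, so that miR-200a, miR-200b and miR-205 are not in the mean. The permutations treat the 12 arrays as independent, while the paper states 4 isolations. Arrays from the same isolation can resemble each other, and the permutation p-values can then be too small. In plain Ct, miR-34b-3p and miR-449a, which lie on different chromosomes, followed each other most closely (Pearson's r = 0.93, permutation p = 6.0e-05, adjusted p = 0.0009, Spearman's rho = 0.90, permutation p = 0.00019, adjusted p = 0.0028, n = 12 arrays). Without MDP array 9 and Tri-DAP array 8, the arrays farthest from the median, r was 0.80, and without the 3 arrays high in fibroblast and mural miRNAs it was 0.92. MDP array 9 and Tri-DAP array 8 were also the arrays on which the mean of the 174 miRNAs was latest, at 29.3 and 29.7. All assays of an array share its RNA input, and the part of this in the relation was not tested. Relative to the mean of these miRNAs the relation was r = 0.45 (rho = 0.25, adjusted permutation p = 0.36 for r), not past the adjusted threshold. With this reference the farthest 2 arrays were Tri-DAP array 5 and control array 7, and without them r was -0.06. Without the 3 arrays high in fibroblast and mural miRNAs r was 0.55. Relative to U6 the relation was r = 0.64 (rho = 0.64, adjusted permutation p = 0.18).

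MiR-34a and miR-34b-3p were related relative to U6 (r = 0.85, permutation p = 0.00044, adjusted p = 0.0066, rho = 0.87, permutation p = 0.00046, adjusted p = 0.0069, r = 0.74 without Tri-DAP arrays 8 and 14). In plain Ct their r was 0.29 and relative to the mean of the miRNAs 0.42, neither past the adjusted threshold by permutation, and values relative to U6 share the U6 of their array. Without the 3 arrays high in fibroblast and mural miRNAs r was 0.91 relative to U6, 0.57 relative to the mean of the miRNAs and 0.69 in plain Ct. The partners of the miR-34b/c cluster, miR-34b-3p and miR-34c, showed r = 0.45 relative to U6, -0.55 relative to the mean of the miRNAs and 0.20 in plain Ct. For the miR-449 partners r was -0.05, -0.24 and 0.14 over 8 arrays. Thus no relation between members of a common cluster passed the adjusted threshold with any reference, and the sign depended on it.

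**Figure D4:**
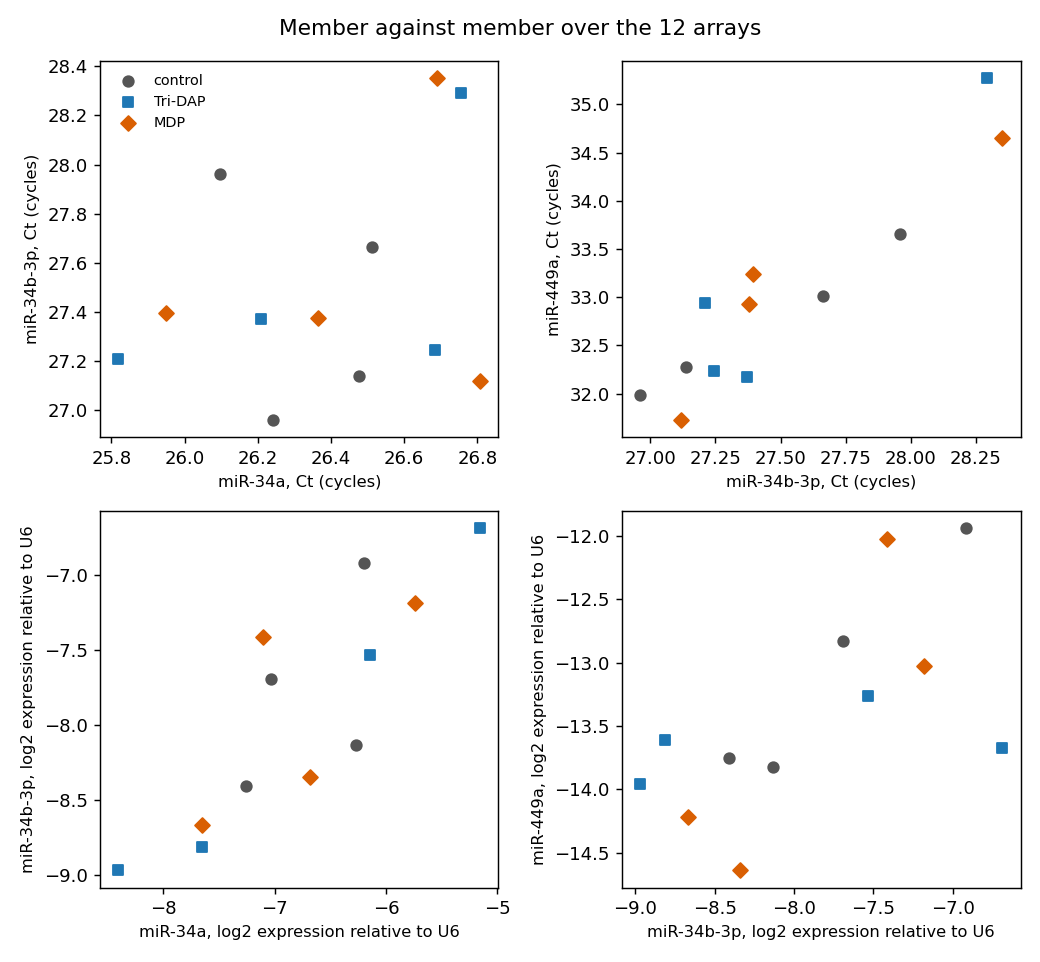
Values of miR-34b-3p against miR-34a (left) and of miR-449a against miR-34b-3p (right) on the 12 arrays, as Ct in cycles (top) and as log2 expression relative to U6 (bottom), with groups by colour and shape. MiR-34a and miR-34b-3p line up more closely in the U6-normalized panel (r = 0.85 against 0.29), and miR-34b-3p and miR-449a most closely in Ct (r = 0.93 against 0.64).

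With the epithelial miRNAs, miR-34c had r = 0.72 in plain Ct (permutation p = 0.006, adjusted p = 0.044, rho = 0.69, permutation p = 0.017, adjusted p = 0.13, r = 0.62 without Tri-DAP array 11 and control array 7), 0.30 relative to U6 and 0.32 relative to the mean of the miRNAs. MiR-34a had r = -0.79 relative to the mean of the miRNAs (permutation p = 0.0032, adjusted p = 0.048, rho = -0.80, permutation p = 0.0029, adjusted p = 0.043, r = -0.71 without MDP array 15 and Tri-DAP array 14, r = -0.68 without the 3 arrays high in fibroblast and mural miRNAs), -0.26 relative to U6 and -0.17 in plain Ct. MiR-449a, the miR-449 member measured on all arrays, had r = 0.08, 0.15 and 0.57 relative to U6, to the mean of the miRNAs and in plain Ct, none past the adjusted threshold by permutation.

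The miRNAs most like each member were taken as those with the highest r relative to the mean of the miRNAs, over 12 arrays and among the 173 others measured on all arrays. For miR-34a these were miR-221 (r = 0.96), miR-29a (0.95) and miR-27a (0.94), at 0.90, 0.84 and 0.96 without the 3 arrays high in fibroblast and mural miRNAs, while miR-34b-3p stood at rank 61 among the 173. For miR-34b-3p they were miR-30e (0.75), miR-26a (0.75) and miR-186 (0.70), and its cluster partner miR-34c stood at rank 167. The closest to miR-34c were let-7i (0.66), miR-685 (0.64) and miR-130a (0.60), and the closest to miR-449a were miR-20b (0.87), miR-301b (0.68) and miR-19a (0.61). Thus none of the 4 members measured on all arrays had another member among its 3 closest miRNAs. These are descriptions, since the closest of 173 are chosen by their values.

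Other p53-linked miRNAs were examined beside miR-34a. Of 7 on the list, 6 were on the array and miR-22 was not. The earliest was miR-16, a repressor of cyclins and Bcl2, with a mean Ct of 22.9, followed by miR-15a at 29.2 and miR-192 at 30.5, each measured on 12 of 12 arrays. Of 5 tested after Tri-DAP and 6 after MDP, 0 were called in either direction in limma, against 1.69% and 1.23% of all miRNAs. Their median log2 fold change was -0.17 after Tri-DAP and 0.01 after MDP, against -0.24 and -0.02 over all miRNAs tested, and miR-16 itself was at -0.13 and 0.02.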

How the data were processed

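The 12 arrays were grouped by their labels, 4 each for control, Tri-DAP and MDP. According to the methods, SDS software set the threshold automatically and values were normalized to U6. The deposited Ct table (a score in cycles, not normalized) holds 40 where no threshold was reached. The authors' normalized table holds Ct minus the mean Ct of 4 U6 wells, a log2 scale, and its sign was turned here. The deposited ratios between group means were not used, nor were 12 unnamed columns of the Ct table. There are 335 mouse and 40 rat miRNA assays, and 231 to 254 miRNAs were measured per array.

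Wells at 40 were treated as missing, and testing a miRNA required 2 or more measured values in both groups. A single limma model (3.58.1, R 4.3.3, lmFit and eBayes) was fitted to the 12 arrays with group means and without pairing. An unadjusted p under 0.05 counted as a call, and adjusted p-values (Benjamini-Hochberg) cover all miRNAs tested. Single members were compared by two-sided exact permutation tests that enumerated all divisions of the arrays (numpy 2.4.6), with smallest p = 0.029 for 4 arrays against 4. Fisher's exact tests used scipy 1.17.1. Correlations used 100000 permutations for 12 arrays and exact enumeration for 8. Scripts were tested on simulated data. The p-values measure the spread between these cultures. Alternatives were run for undetermined wells, a Ct limit of 35, other references, the number of values required, the groups in the fit, moderation and leaving out each array.

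The members, lists and tests were chosen with earlier results of these data known. Named are all members, the reference RNAs, the 3 miRNAs closest to each member measured on at least 10 arrays, and up to 3 miRNAs of each list by earliest Ct. The 3 epithelial miRNAs measured on all arrays are named too. Of 5 leukocyte miRNAs 4 were tested in each comparison and of 3 fibroblast and mural miRNAs 3, and 0 were called, against 1.69%, 1.23% and 2.07% of all miRNAs. The summed leukocyte level ran from 15.4 to 28.9 per 1000 of U6 in control cells, from 8.13 to 39.2 after Tri-DAP and from 15.5 to 29.3 after MDP. This sum is mostly that of miR-155, with a mean Ct of 25.4, against 29.8 for miR-150 and 31.3 for miR-223. The rest of the list was later still and was measured on 9 and 2 arrays. The sum is therefore no measure of the share of leukocytes. Chosen after seeing the data were a block of arrays with consecutive numbers and leaving out the 3 arrays high in fibroblast and mural miRNAs. Sequences, coordinates and overlaps were taken from RefSeq on GRCm38.p6.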

Additional observations from a re-analysis of the deposited data

Results flagged for a closer look

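The Ct of mmu-miR-34b-3p on Tri-DAP array 8 was 28.3, against 27.2, 27.2 and 27.4 on the other Tri-DAP arrays, and was picked out because its gap to the nearest array made up most of the range of the group. Of 26 groups of 4 arrays examined, only this 1 met the limit, which chance meets in about 1 group in 20, or 1.3 groups here. On the same array U6 (21.6) and miR-449a (35.3) were also at their latest. Without it the log2 fold change of miR-34b-3p after Tri-DAP was -0.65, and with it -0.21, neither called in limma.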

How the results depend on the processing

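The 13 log2 fold changes of members were recomputed under 312 combinations of member, comparison and setting, of which 261 kept their direction and their side of the unadjusted threshold in limma, 47 turned direction and 4, all of miR-449b, passed the threshold. Every member fold change apart from that of miR-449b stayed uncalled in all settings run. With the mean of the 174 miRNAs as reference, Tri-DAP minus control was 0.083 for miR-34a and 0.019 for miR-34b-3p, and MDP minus Tri-DAP was -0.15 for miR-34a, -0.098 for miR-34b-3p and -0.048 for miR-449a. MDP minus Tri-DAP of miR-34a was -0.016 relative to U6 and snoRNA202 and -0.086 with no normalization, and that of miR-34b-3p was -0.030 with no normalization. For miR-449b, MDP minus control was 0.92 with undetermined wells at Ct 40, and it passed the threshold relative to the mean of the miRNAs (-1.24), with only the 2 groups in the fit (-1.19), and without Tri-DAP array 8 or 14, which leave the value at -1.19. The cause was not tested.

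Leaving out each array in turn gave, for Tri-DAP minus control, -0.71 to 0.37 for miR-34a and -0.65 to 0.11 for miR-34b-3p, the lowest without Tri-DAP array 8 and the highest without Tri-DAP array 14, 0.12 to 0.80 for miR-34c and -0.78 to -0.16 for miR-449a. For MDP minus control it gave -0.46 to 0.18 for miR-34a, -0.35 to 0.18 for miR-34b-3p, -1.37 to -1.01 for miR-449b, 0.086 to 0.68 for miR-34c and -0.87 to -0.0009 for miR-449a. For MDP minus Tri-DAP it gave -0.48 to 0.61 for miR-34a, -0.22 to 0.54 for miR-34b-3p, -0.43 to 0.30 for miR-34c and -0.33 to 0.54 for miR-449a.

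The number of miRNAs called after Tri-DAP, 4, was 7 with no normalization, 8 with undetermined wells at Ct 40, and 1 to 12 with single arrays left out (12 without Tri-DAP array 8, 1 without array 5, 2 without array 11). After MDP, 3 became 1 with at least 3 values per group or wells above Ct 35 missing, 5 with the mean of the miRNAs, and 1 to 5 with single arrays left out (5 without control array 13 or Tri-DAP array 8, 1 without MDP array 15). Between MDP and Tri-DAP, 5 became 1 with at least 3 values per group, 8 with no normalization or only the 2 groups, and 2 to 17 with single arrays left out (17 without Tri-DAP array 8, 2 without Tri-DAP array 14 or MDP array 15, 3 without Tri-DAP array 5 or MDP array 6).

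Within-array differences ranged, with arrays left out, for Tri-DAP minus control over -0.082 to 0.32 (miR-34a and miR-34b-3p), -0.19 to 0.80 (miR-34a and miR-449a) and -0.13 to 0.60 (miR-34b-3p and miR-449a). For MDP minus control they ranged over -0.18 to 0.27, -0.14 to 0.87 and, for miR-34b-3p and miR-34c, -0.81 to 0.058. For MDP minus Tri-DAP the ranges were -0.26 to 0.21 (miR-34a and miR-34b-3p), -0.10 to 0.41 (miR-34a and miR-34c), -0.53 to 0.48 (miR-34a and miR-449a), -0.010 to 0.39 (miR-34b-3p and miR-34c), -0.33 to 0.40 (miR-34b-3p and miR-449a) and -0.57 to 0.26 (miR-34c and miR-449a). The difference of miR-34c and miR-449b after MDP ran from 1.49 to 2.06, and without any 1 of the 7 arrays behind it the exact test cannot reach the threshold.

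Of the 15 correlations relative to U6, the sign turned without the 2 farthest arrays for miR-449b with miR-34a (-0.12), miR-34b-3p (-0.34), miR-34c (-0.059), miR-449a (0.21) and the epithelial mean (-0.039), and for miR-34c with miR-449a (0.52) and the epithelial mean (-0.14). Relative to the mean of the miRNAs it turned for miR-34a with miR-34c (-0.11) and miR-449a (-0.44), for miR-34b-3p with miR-34c (-0.55) and miR-449b (-0.13), and for miR-34c with miR-449b (-0.13). With no normalization it turned for miR-34b-3p with miR-449b (-0.0025) and the epithelial mean (0.40), for miR-34c with miR-449a (0.27) and miR-449b (-0.040), and for miR-449a with miR-449b (0.14). The number of arrays, 4 per group, limits the precision of all these values.

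Chosen after seeing the data, arrays with consecutive numbers (4 to 6, 7 to 9, 10 to 12 and 13 to 15) were taken as sets, which the labels do not state. Deviations from the group means over the 174 miRNAs correlated by -0.12 to 0.83 (median 0.30) within sets and by -0.64 to 0.32 (median -0.11) between them. The median was thus higher within sets, while not every pair of arrays in a set deviated together. The set 13 to 15 is made up of the arrays high in fibroblast and mural miRNAs. The main tests, which use no pairing, do not take such sets into account. With the sets as a replicate block, 8 miRNAs were called after Tri-DAP, 6 after MDP and 9 between MDP and Tri-DAP, and relative to the mean of the miRNAs 13, 12 and 12. No call of a member changed under the block with U6, and miR-449b after MDP was -1.24. Under the block relative to the mean of the miRNAs the turned values were 0.083 and 0.019 for miR-34a and miR-34b-3p after Tri-DAP and -0.15, -0.098 and -0.048 for miR-34a, miR-34b-3p and miR-449a between MDP and Tri-DAP, as without the block. With this reference miR-449b after MDP was called without the block, and under the block it was -1.16 and not called (limma unadjusted p = 0.061). Within sets miR-34c was higher after Tri-DAP than in control in 4 of 4 relative to the mean of the miRNAs (0.61, 1.72, 0.39 and 0.25) and in plain Ct, with p = 0.125 in an exact sign-flip test, the smallest that 4 sets allow, and in 3 of 4 relative to U6.

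Without the 3 arrays high in fibroblast and mural miRNAs, the turned values were 0.26 for miR-34a and 0.14 for miR-34b-3p after Tri-DAP and -0.38, -0.39 and -0.45 for miR-34a, miR-34b-3p and miR-449a between MDP and Tri-DAP. Relative to the mean of the miRNAs these were 0.15, 0.031, -0.18, -0.19 and -0.25. Called were 2 miRNAs after Tri-DAP, 3 after MDP and 2 between MDP and Tri-DAP, and relative to the mean of the miRNAs 2, 5 and 2.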
